A study of Mus musculus with 41 samples.

Results

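*Nos2*, *Ccr7*, *Arg1* and *Mrc1* are the macrophage polarization markers among the 54 mouse target genes that were measured by quantitative PCR, and these 4 genes were taken by name from the table of Ct values. They were followed in skin tissue from 41 female NSG mice, a strain without mature T, B or NK cells whose macrophages and dendritic cells are themselves defective. P mice carried an electrospun, degradable nanomesh, a copolymer of L-lactic acid and ε-caprolactone, under the abdominal skin. P+eMSC mice received the same nanomesh with SUSD2+ mesenchymal stem/stromal cells from human endometrium (eMSC), labelled with mCherry by a lentivirus, and sham mice had an operation as control. Tissue was taken after 1 week from 7 sham, 6 P and 7 P+eMSC mice, and after 6 weeks from 6 sham, 8 P and 7 P+eMSC mice. All groups shared the NSG background, and the labels give neither the age of the mice nor the donor of the cells a mouse received. Some mice had also served in an earlier study. The Ct value is the PCR cycle at which a product crosses the detection threshold, so a level is given as the 18S ribosomal RNA Ct minus the Ct of the gene, on a log2 scale where 1 unit is a doubling.

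Macrophages take on different activation states at an implant. Classically activated cells, driven by interferon and bacterial products, make nitric oxide through the enzyme encoded by *Nos2* and carry the chemokine receptor encoded by *Ccr7*, which also guides mature dendritic cells to lymph nodes. Alternatively activated cells, driven by interleukins that signal through the receptor chain *Il4ra*, degrade the same amino acid, arginine, with the arginase encoded by *Arg1*, and take up glycoproteins through the mannose receptor encoded by *Mrc1*. None of these genes belongs to macrophages alone: keratinocytes and fibroblasts can use *Nos2* and *Arg1*, and some endothelial cells carry *Mrc1*. In such bulk tissue, fewer macrophages and less RNA per macrophage cannot be told apart.

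Of the 164 marker values, 4 were not detected. *Nos2* and *Ccr7* had no Ct in mouse 52 (P, 6 weeks) and in mouse 78 (P+eMSC, 1 week), whereas *Arg1* and *Mrc1* were detected in every mouse. Mouse 52 lacked a Ct for 31 of the 54 genes and was the lowest of its group in all 23 genes detected in it, with an 18S Ct of 7.79 against 6.20 to 7.79 over all mice. Mouse 78 lacked 6 genes and was the lowest of its group in 46. Mouse 2356, labelled P at 6 weeks, was the highest of its group for all 4 markers. Its deposited fold changes of these markers were set against the 1 week sham mice. The log2 value of *Nos2*, 3.13, equals that computed against them and not the 2.52 computed against the 6 week sham mice. The deposited *Ccr7* fold changes of the 6 sham mice at 6 weeks were also set against the 1 week sham mice, which does not touch the levels used here. Several shifts are given with and without these mice. Among genes of other cells, epithelial *Cdh1* and the 5 fibroblast collagens *Col1a1*, *Col3a1*, *Col6a1*, *Col6a2* and *Col6a3* were measured, while only *Ccr1* and *Ccr2* stood for monocytes and macrophages apart from the markers. Against 18S none of these 8 genes was called in any comparison described here, where a call is an exact p of 0.0513 or below. The other monocyte and macrophage genes listed for this check were not measured, so the number of macrophages has no marker of its own in these data.

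*Nos2*, the inducible nitric oxide synthase, had the narrowest range of the markers. At 1 week its level ran from -15.99 through a median of -14.21 to -10.79 in the sham mice. It ran from -16.06 through -14.56 to -10.33 in the P mice, and from -15.76 through -13.93 to -11.94 in the 6 P+eMSC mice in which it was detected. The 3 groups covered nearly the same stretch, and in each a single mouse lay more than 1 unit above the next. At 6 weeks the sham mice ran from -14.73 through -13.45 to -11.26 and the 7 P mice with a Ct from -16.08 through -14.07 to -10.76. The P+eMSC mice were the least spread, from -14.83 through -12.89 to -12.12, with an SD of 0.92. Their median was the highest of the 6 groups, yet all but the lowest of these mice lay inside the range of the sham mice and all lay inside that of the P mice. The medians of the 6 groups spanned 1.67 units, against 5.75 units over all mice.

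*Ccr7*, the receptor for the lymph node chemokines, was highest by its median in the 2 implant groups at 1 week. The sham mice at that time ran from -18.78 through -15.90 to -10.13, where the top value belonged to mouse 2269, the highest sham mouse in 42 of the 54 genes. The P mice ran from -17.74 through -13.35 to -11.37, and the P+eMSC mice from -16.84 through -14.28 to -11.12. The P mice fell into 4 at -14.07 or above and 2 at -17.25 or below, with no mouse between. At 6 weeks the values ran from -18.07 through -15.85 to -12.53 in the sham mice and from -19.75 through -15.50 to -11.80 in the P mice. They ran from -18.08 through -15.37 to -11.56 in the P+eMSC mice. At 6 weeks the 3 medians lay within a single unit while each group covered more than 5 units.

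*Arg1*, arginase 1, had its highest median in the P+eMSC mice at 6 weeks and its lowest in the P mice at the same time. At 1 week the sham mice ran from -14.78 through -10.72 to -8.77 and the P mice from -14.33 through -10.77 to -8.85. The P+eMSC mice ran from -17.46 through -12.32 to -8.03, with both the highest and the lowest value of that week. At 6 weeks the sham mice ran from -17.50 through -12.46 to -8.79, and the P mice from -18.27 through -13.62 to -9.36. The P+eMSC mice ran from -19.73 through -10.27 to -8.94. The lowest *Arg1* value of all mice, that of mouse 2210, therefore came from the group with the highest median, and the next mouse of that group stood at -12.71. Group medians spanned 3.35 units, the most of the 4 markers, against a range of 11.7 over all mice.

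*Mrc1*, the mannose receptor, had the closest medians. At 1 week it ran from -9.89 through -7.41 to -3.73 in the sham mice, from -9.12 through -7.24 to -5.29 in the P mice and from -11.10 through -6.98 to -4.49 in the P+eMSC mice. The lowest of these values was that of mouse 78. At 6 weeks it ran from -8.16 through -6.39 to -4.58 in the sham mice, from -16.70 through -7.66 to -5.87 in the P mice and from -9.47 through -6.54 to -3.76 in the P+eMSC mice. The P mouse at the bottom was mouse 52, and the next lowest stood at -10.30. The 6 medians spanned 1.27 units.

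**Figure D1:**
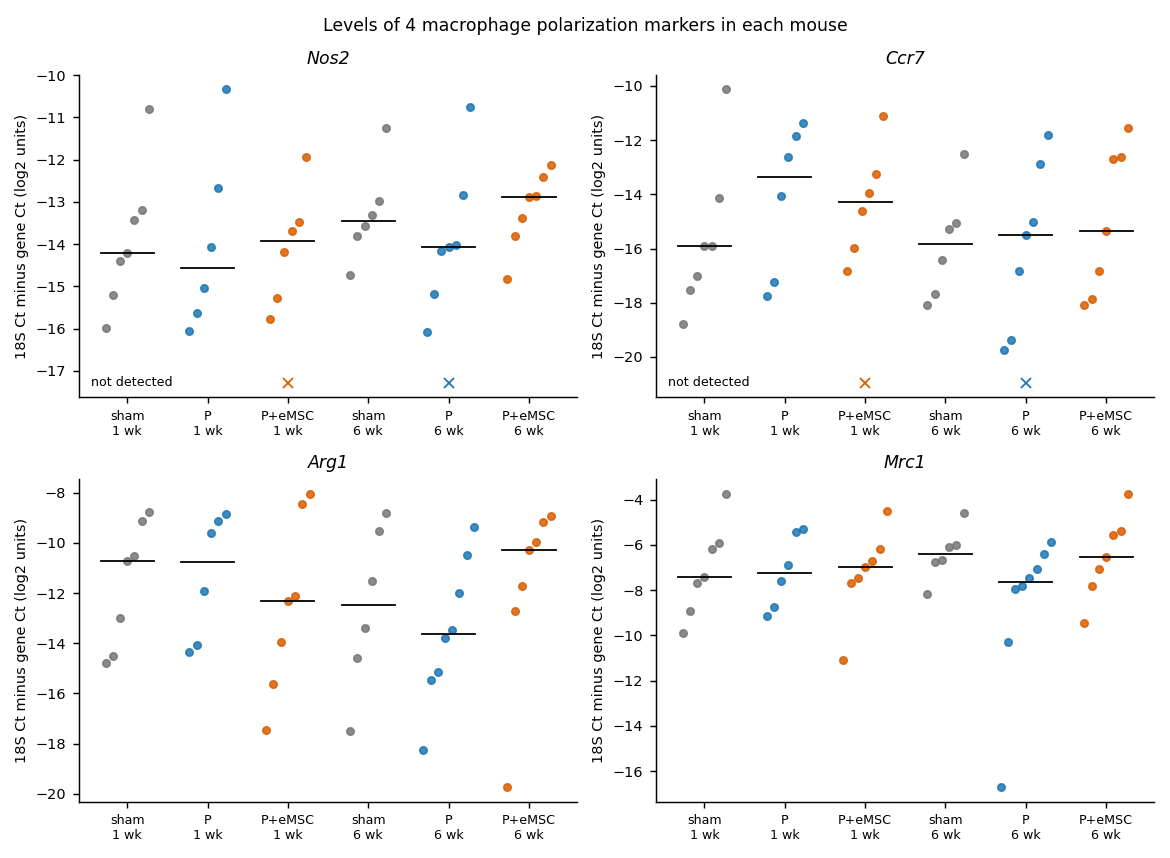
Level of each marker (18S Ct minus gene Ct, log2 units, y axis) in every mouse of the 6 groups (x axis), with a point for each mouse, a black bar for the group median and a cross for a mouse with no Ct. The groups overlap for all 4 markers, the P+eMSC mice at 6 weeks have the highest median of Nos2 and Arg1, and mouse 2210 lies lowest for Arg1 at -19.73 and mouse 52 for Mrc1 at -16.70.

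The order of the 6 medians differed from marker to marker, and no step in it was larger than the spread of the mice. From high to low, *Nos2* ran P+eMSC 6 weeks, sham 6 weeks, P+eMSC 1 week, P 6 weeks, sham 1 week and P 1 week. *Ccr7* ran P 1 week, P+eMSC 1 week, P+eMSC 6 weeks, P 6 weeks, sham 6 weeks and sham 1 week. *Arg1* ran P+eMSC 6 weeks, sham 1 week, P 1 week, P+eMSC 1 week, sham 6 weeks and P 6 weeks. *Mrc1* ran sham 6 weeks, P+eMSC 6 weeks, P+eMSC 1 week, P 1 week, sham 1 week and P 6 weeks. Thus *Arg1* and *Mrc1* shared the P mice at 6 weeks as the lowest group and *Nos2* and *Arg1* the P+eMSC mice at 6 weeks as the highest. In all 30 pairs of neighbours in these orders, counting those of the differences between markers described further on, the ranges overlapped and the gap between the medians was below the smaller of the SDs.

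Whether the eMSC changed the markers in the tissue around the nanomesh was asked first by comparing P+eMSC with P at 6 weeks. All 4 markers lay higher with the cells, as did 47 of the 54 genes, and none of the 4 was called. *Arg1* differed by 2.26 units (Hodges-Lehmann shift, the median of all differences between a mouse of one group and a mouse of the other, 95% interval -1.46 to 5.49, exact two-sided Mann-Whitney p = 0.152, 7 against 8 mice). *Mrc1* differed by 1.35 units (-0.67 to 4.18, exact p = 0.121), *Ccr7* by 1.28 (-2.82 to 4.19, exact p = 0.620) and *Nos2* by 1.13 (-0.98 to 2.30, exact p = 0.259). The median shift of all 54 genes was 1.15 units, so *Nos2*, *Ccr7* and *Mrc1* differed by about as much as the panel did. The threshold for a call, an exact p of 0.0513, is the first value above 0.05 that 6 against 7 mice can give. At this threshold 18.5% of all genes (10 of 54, all higher) were called against 0 of the 4 markers, and the Benjamini-Hochberg adjusted p of the markers over all 54 genes ran from 0.326 to 0.744 in the exact test.

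Of the 15 fits without a single mouse at 6 weeks, 1 was called for *Arg1* and 1 for *Mrc1*. In each of these the mouse left out was the lowest P+eMSC mouse for that gene, so its removal raised the shift. Without mouse 2210 of the P+eMSC group, *Arg1* was 3.11 units higher with the cells (exact p = 0.0293). Without mouse 60 of that group, *Mrc1* was 1.81 units higher (exact p = 0.0426). Without the P mouse 52 the shifts were 1.75 for *Arg1* (exact p = 0.209) and 0.87 for *Mrc1* (exact p = 0.209). With mouse 2356 counted at 1 week the shifts were 3.04 for *Arg1* and 1.69 for *Mrc1* (exact p = 0.0728 for each) and 1.23 for *Nos2* (exact p = 0.0734). With mouse 52 left out as well, they were 2.60 for *Arg1* (exact p = 0.101) and 1.16 for *Mrc1* (exact p = 0.138), a choice made after these values were seen.

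The direction of all 4 shifts at 6 weeks depended on the reference. When 18S was replaced by the panel median of each mouse, taken over the 23 genes with a Ct in every mouse compared, the shift became -0.48 for *Ccr7*, -0.24 for *Nos2*, -0.10 for *Arg1* and -0.10 for *Mrc1*, with exact p from 0.710 to 0.955. The median shift of all genes was then -0.25. Higher levels of the markers in P+eMSC at 6 weeks were therefore found against 18S and not against the median of these 23 genes. The 23 genes include *Arg1* and *Mrc1* themselves and are only those still detected in mouse 52. For *Mrc1* the interval of the shift narrowed to -1.08 to 0.78, whereas for *Arg1* it remained wide, -2.52 to 2.05. Against 18S the shift was 1.37 for *Cdh1*, 0.74 to 1.43 for the 5 collagens, -0.49 for *Ccr1* and 1.94 for *Ccr2*. The summed level of *Ccr1* and *Ccr2* ran from -13.77 through -10.50 to -7.79 in P+eMSC and from -13.01 through -11.83 to -8.04 in the 7 P mice with both. The part of these 8 genes in the marker values was not tested.

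At 1 week P+eMSC and P differed little, and the markers did not share a direction. The shift was -1.41 for *Arg1* (95% interval -5.54 to 2.20, exact p = 0.731), -0.21 for *Ccr7* (-3.36 to 3.31, exact p = 1), 0.33 for *Nos2* (-3.10 to 2.17, exact p = 0.937) and 0.15 for *Mrc1* (-2.23 to 2.38, exact p = 0.945). None of the 4 was called, and neither was any other gene (0% of 54). The intervals reach beyond 2 units on both sides for every marker, so they hold differences of 2 units either way. Without mouse 78 the shift was -0.050 for *Arg1* and 0.74 for *Mrc1*. Against the panel median of the 48 genes detected in all these mice, the 4 shifts lay between -0.80 and -0.17.

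**Figure D2:**
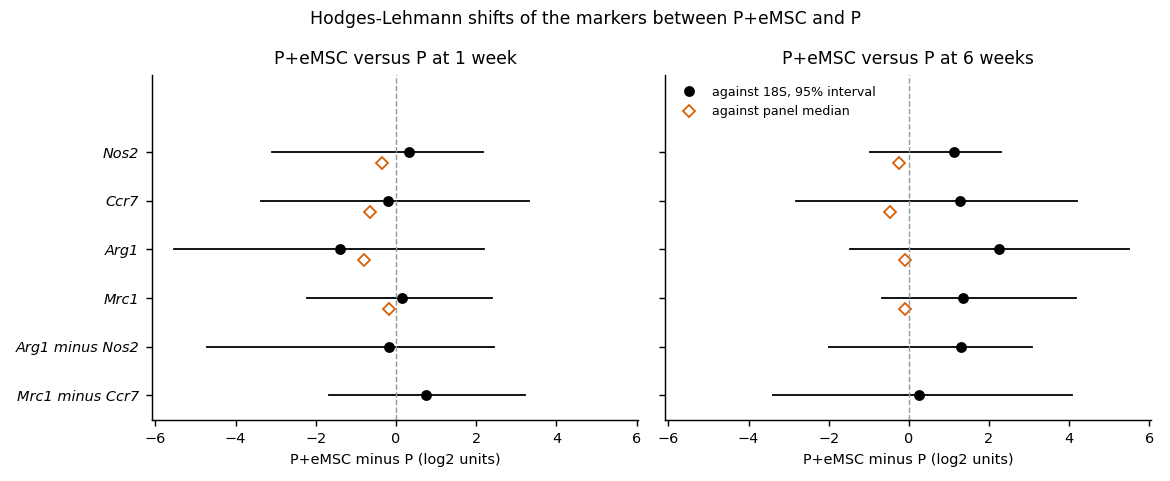
Shift of each marker and of each difference between markers (P+eMSC minus P, log2 units, x axis) at 1 week and at 6 weeks, with black points and lines for the Hodges-Lehmann shift and its 95% interval against 18S and open diamonds for the shift against the panel median. Every interval crosses 0, and at 6 weeks the 4 diamonds lie between -0.48 and -0.10 while the black points lie between 1.13 and 2.26.

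Whether the effect of the cells changed between the 2 times was tested with limma over all 54 genes. The P+eMSC minus P difference was larger at 6 weeks than at 1 week by 2.96 units for *Arg1* (SE 2.21), 2.24 for *Mrc1* (SE 1.65), 1.01 for *Ccr7* (SE 1.95) and 0.77 for *Nos2* (SE 1.27). The limma adjusted p ran from 0.485 to 0.662. All 54 genes had a positive change, and 0 passed an adjusted p of 0.05 or an unadjusted one. Without mouse 52 the change was 2.27 for *Arg1* and 1.10 for *Mrc1*. With mouse 2356 counted at 1 week it was 3.83 for *Arg1*, 2.83 for *Mrc1*, 2.03 for *Ccr7* and 1.75 for *Nos2* (limma adjusted p from 0.272 to 0.380), with 0 of the 54 genes past an adjusted p of 0.05 and 3 past an unadjusted one. With the animal number series described next as a covariate it was 2.95 for *Arg1*, 1.42 for *Mrc1*, 0.51 for *Ccr7* and 0.19 for *Nos2* (limma adjusted p from 0.777 to 0.949). Against the panel median it was 0.74 for *Arg1*, 0.31 for *Ccr7*, 0.06 for *Nos2* and 0.03 for *Mrc1*.

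Animal numbers fall into a series below 1000 and another above 2000, which the labels do not explain, and both occur in every group. At 6 weeks the P+eMSC minus P shift of *Arg1* was 4.13 units among the numbers below 1000 (2 against 5 mice) and 0.18 among those above 2000 (5 against 3). *Ccr7* shifted by 1.33 and -0.84 in these series, *Nos2* by 0.84 and 0.64 and *Mrc1* by 1.56 and 0.54. At 1 week *Ccr7* shifted by 3.03 below 1000 (3 against 2 mice) and by -2.62 above 2000 (3 against 4), and *Arg1* by 0.08 and -2.96. Only *Nos2* and *Mrc1* had a positive shift in both series at both times, and that of *Mrc1* at 1 week below 1000 was just 0.03 (4 against 2 mice). No test was made within either series. An exact permutation within the series gave p from 0.215 to 0.945 for the markers at 6 weeks.

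The tissue response to the nanomesh itself was asked by comparing P with sham. At 6 weeks all 4 markers lay lower in P, as did 43 of the 54 genes. The median shift of all genes was -0.83 units, so the lower levels were not particular to the markers. The shift was -1.27 for *Mrc1* (95% interval -4.21 to 0.28, exact p = 0.142), -0.82 for *Arg1* (-4.88 to 2.93, exact p = 0.491), -0.64 for *Nos2* (-2.76 to 0.98, exact p = 0.366) and -0.10 for *Ccr7* (-4.09 to 3.47, exact p = 1). None of the 4 was called, where 25.9% of all genes (14 of 54, all lower) were. Without mouse 52 the shift was -1.11 for *Mrc1* and -0.50 for *Arg1*, and with mouse 2356 counted at 1 week it was -1.71 for *Arg1*. *Mrc1* crossed the threshold without mouse 2356, with a shift of -1.61 (exact p = 0.0513), and without mouse 123 of the sham group, with a shift of -1.43 (exact p = 0.0451). Against the panel median, *Nos2*, *Ccr7* and *Arg1* turned to 0.40, 0.95 and 0.85 units higher in P and *Mrc1* came to -0.08. At 1 week the shift was 1.83 for *Ccr7* (-1.83 to 5.16, exact p = 0.445), 0.36 for *Arg1*, 0.13 for *Mrc1* and -0.25 for *Nos2*. None of the 4 was called at that time either, against 5.56% of all genes (3 of 54).

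Most shifts between P+eMSC and sham were small, but their intervals were wide and do not show that the groups were alike. At 6 weeks the shifts were 0.97 for *Arg1* (95% interval -3.17 to 5.41), 0.53 for *Ccr7* (-2.79 to 4.87), 0.31 for *Nos2* (-1.52 to 1.40) and -0.07 for *Mrc1* (-2.48 to 2.25), with exact p from 0.731 to 1. At 1 week they were 1.74 for *Ccr7* (-1.84 to 4.78, exact p = 0.295), -1.09 for *Arg1*, -0.05 for *Nos2* and -0.04 for *Mrc1*. No marker was called at either time, and no other gene was (0% of 54 at 6 weeks and 0% of 54 at 1 week). The sham mice served in both comparisons with the implants. For *Ccr7* at 1 week, P and P+eMSC each lay nearly 2 units above these shared sham mice by the shift, and both intervals cross 0. Without the sham mouse 2269 these shifts were 2.87 for P (exact p = 0.180) and 2.18 for P+eMSC (exact p = 0.0931). The P+eMSC shift of *Ccr7* leaves out mouse 78, in which this gene was not detected. With that value set below the lowest, the shift was 1.03 (exact p = 0.620). Without mouse 78, P+eMSC against sham at 1 week shifted by 0.43 for *Arg1* and 0.57 for *Mrc1*.

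Between 1 and 6 weeks no marker was called in any of the 3 treatments. In P, *Ccr7* shifted by -1.82 (95% interval -5.68 to 2.24, exact p = 0.366), *Arg1* by -1.74 (-5.85 to 0.88, exact p = 0.181), *Mrc1* by -0.78 and *Nos2* by 0.03. In P+eMSC, *Arg1* shifted by 1.86 (-3.68 to 5.34, exact p = 0.710), *Nos2* by 0.88 (-0.92 to 2.41, exact p = 0.234), *Mrc1* by 0.65 and *Ccr7* by -0.93. No other gene was called in P (0% of 54) or in P+eMSC (0% of 54) either. Without mouse 52 the shifts in P were -1.38 for *Arg1* and -0.38 for *Mrc1*, and without mouse 78 those in P+eMSC were 0.51 for *Arg1* and 0.29 for *Mrc1*. *Nos2* in P+eMSC was called without mouse 2358 of the 1 week group, with a shift of 1.29 (exact p = 0.0480). With mouse 2356 counted at 1 week, *Arg1* in P shifted by -3.22 (exact p = 0.0530) and *Ccr7* by -2.81 (exact p = 0.101). In the sham mice, *Mrc1* shifted by 0.85, *Nos2* by 0.61, *Ccr7* by 0.23 and *Arg1* by -0.59 with 0 of the 4 called, against 3.7% of all genes (2 of 54). Over the 9 comparisons, 0 of the 36 marker tests were called and 0 had an exact p below 0.05, the smallest being the 0.121 of *Mrc1* between P+eMSC and P at 6 weeks. An exact permutation test of the difference of means called none of the markers between P+eMSC and P at either time.

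Markers of the 2 activation states can be set against each other within a mouse without the reference gene, as *Arg1* minus *Nos2*, the enzymes that compete for arginine, and as *Mrc1* minus *Ccr7*, the surface receptors. The size of such a difference also holds the efficiencies of both assays, so only its change between mice has a meaning. *Arg1* minus *Nos2* at 1 week ran from 0.69 through 2.03 to 4.31 in the sham mice, from 0.71 through 2.56 to 4.47 in the P mice and from -3.99 through 2.50 to 5.72 in the P+eMSC mice. At 6 weeks it ran from -3.93 through 1.19 to 4.28 in the sham mice, from 0.04 through 0.62 to 2.36 in the P mice and from -5.92 through 3.12 to 3.68 in the P+eMSC mice. Among mice with a Ct for both genes, the 7 P mice at 6 weeks were the most alike, with an SD of 0.93. The sham and P+eMSC mice of that time had SDs of 3.15 and 3.46. The SD of the P mice leaves out mouse 52, in which *Nos2* was not detected.

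*Mrc1* minus *Ccr7* at 1 week ran from 6.40 through 8.49 to 9.85 in the sham mice, from 5.02 through 6.81 to 8.61 in the P mice and from 4.93 through 7.85 to 9.85 in the P+eMSC mice. At 6 weeks it ran from 6.44 through 9.83 to 11.67 in the sham mice, from 5.06 through 8.63 to 12.27 in the P mice and from 6.01 through 8.88 to 11.02 in the P+eMSC mice. In all 3 treatments the median was higher at 6 weeks than at 1 week, with every pair of ranges overlapping. The P mice at 6 weeks were the widest and split into 3 at 5.93 or below and 4 at 8.63 or above. Among mice with a Ct for all 4 markers, which leaves out mouse 52, this group thus had the most uniform enzyme difference and the least uniform receptor difference.

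**Figure D3:**
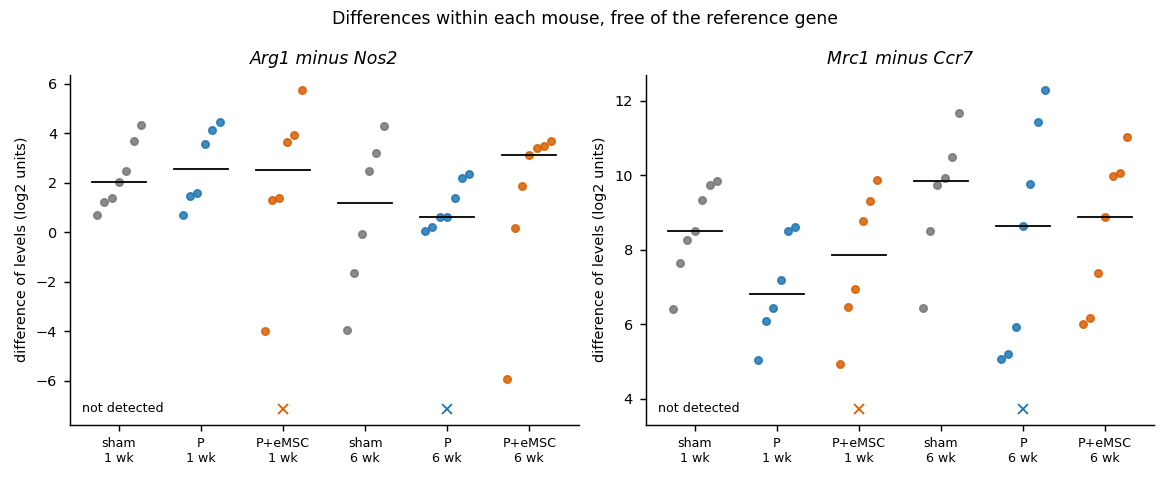
Difference of levels within each mouse (log2 units, y axis) for Arg1 minus Nos2 and Mrc1 minus Ccr7 in the 6 groups (x axis), with a point for each mouse, a black bar for the group median and a cross for a mouse in which one of the genes had no Ct. The 7 P mice at 6 weeks with a Ct for both genes cover 0.04 to 2.36 for Arg1 minus Nos2 and 5.06 to 12.27 for Mrc1 minus Ccr7.

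Neither difference was called between P+eMSC and P. *Arg1* minus *Nos2* shifted by 1.30 at 6 weeks (95% interval -1.996 to 3.06, exact p = 0.259) and by -0.19 at 1 week (-4.71 to 2.43, exact p = 0.818). *Mrc1* minus *Ccr7* shifted by 0.25 at 6 weeks (-3.39 to 4.06, exact p = 0.710) and by 0.74 at 1 week (-1.66 to 3.21, exact p = 0.394). Among all 1431 differences of 2 panel genes, 3.98% were called at 6 weeks and 10.7% at 1 week. The change of the P+eMSC effect between the times was 1.00 (SE 1.90) for the enzymes and -0.56 (SE 1.53) for the receptors, with a limma adjusted p of 1.00 over all 1431 differences. Against sham, *Mrc1* minus *Ccr7* shifted by -1.36 in P at 1 week (-3.43 to 0.25, exact p = 0.138) and by -1.18 in P at 6 weeks (exact p = 0.534). *Arg1* minus *Nos2* shifted there by 0.22 and 0.01, and neither was called, against backgrounds of 10.6% at 1 week and 10.4% at 6 weeks. P+eMSC against sham gave shifts from -0.76 to 0.57 and no call, where 1.75% of the differences were called at 6 weeks and 0.908% at 1 week.

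A single one of the 18 tests on these differences was called. In P, *Arg1* minus *Nos2* was lower at 6 weeks than at 1 week by a shift of -1.41 (95% interval -3.52 to 0.60, exact p = 0.0513, 7 against 6 mice), the threshold value itself. No test on these differences had an exact p below 0.05. In this comparison 2.8% of the 1431 differences were called in either direction, and the Benjamini-Hochberg adjusted p over them was 0.999 in the exact test. With the undetected *Nos2* of mouse 52 set just past the highest *Nos2* Ct, the shift was -1.87 (95% interval -3.90 to -0.091, exact p = 0.0293, 8 against 6 mice). A missing *Nos2* Ct bounds this difference only from below, and the filled-in value places mouse 52 at that bound. This fit therefore cannot decide whether the call holds. The call was lost with mouse 2356 counted at 1 week (shift -1.29, exact p = 0.0734). It was also lost in 8 of the 13 fits without a single mouse, those without 2356, 53, 438, 121, 2267, 132, 2268 or 2396, and the exact p over the 13 ran from 0.0260 to 0.106. In P+eMSC the same difference shifted by -0.47 and in sham by -1.25 (exact p = 0.628 and 0.445), and 0 of these were called against 1.68% and 3.35% of all differences. *Mrc1* minus *Ccr7* shifted upward with time by 1.19 in P, 0.83 in P+eMSC and 1.00 in sham, with exact p from 0.138 to 0.445. The shift in P leaves out mouse 52, in which *Ccr7* was not detected. With that value set just past the highest *Ccr7* Ct, the shift in P was 0.14 (exact p = 0.755). A missing *Ccr7* Ct likewise bounds this difference only from below, so that fit does not decide its size. In sham *Mrc1* minus *Ccr7* was called without mouse 408, with a shift of 1.496 (exact p = 0.0303).

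Much of the spread of the markers between mice was shared with the rest of the panel. The median level of the 21 other genes detected in all mice ran from -16.94 in mouse 52 to -5.33 in mouse 2351. Across mice its Pearson correlation was 0.96 with *Mrc1* (41 mice, Spearman rho 0.92), 0.74 with *Nos2* (39 mice, rho 0.78), 0.67 with *Arg1* (41 mice, rho 0.77) and 0.61 with *Ccr7* (39 mice, rho 0.63). Without the 2 mice farthest from the median the Pearson values were 0.91, 0.74, 0.68 and 0.64. The points share the 18S Ct of their mouse, and groups are pooled, so these are descriptions with no p. *Mrc1* thus followed the panel most closely of the 4. The differences within a mouse followed it less, with 0.35 for *Arg1* minus *Nos2* and -0.07 for *Mrc1* minus *Ccr7*.

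**Figure D4:**
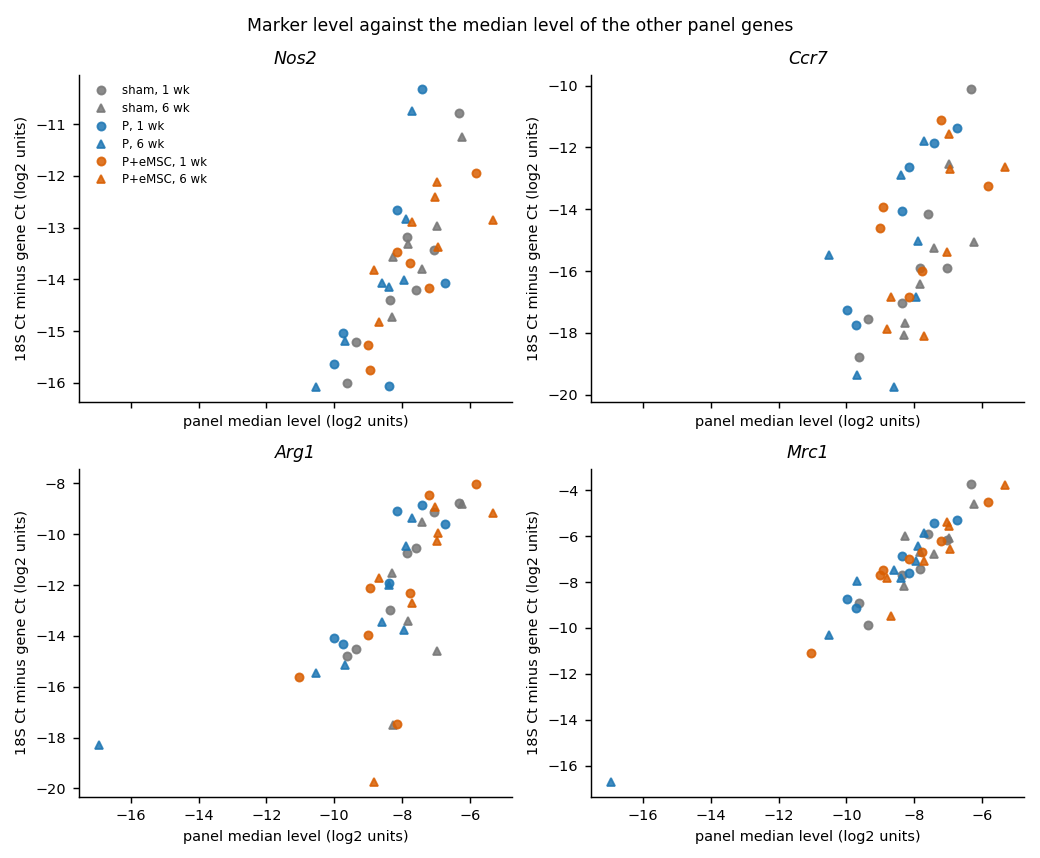
Level of each marker (18S Ct minus gene Ct, log2 units, y axis) against the median level of 21 other panel genes in the same mouse (log2 units, x axis), with colours for treatment, circles for 1 week and triangles for 6 weeks. Mrc1 lies close to a line (Pearson r 0.96), Ccr7 scatters widely (0.61), and the mouse at the far left of the Arg1 and Mrc1 panels is mouse 52.

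The genes whose levels followed each marker most closely differed by marker. *Ccr7* was nearest to genes for chemokines, with Spearman rho of 0.94 for *Ccl5*, an attractant of lymphocytes and monocytes, 0.87 for *Ccl2*, the main monocyte attractant, and 0.85 for the interferon-induced *Cxcl10* (39 mice). After the panel median replaced 18S these were 0.88, 0.75 and 0.72, so these genes stayed close to *Ccr7* without the shared level. *Mrc1* was nearest to *Il4ra*, the receptor chain for the alternative activators (0.93), to the gelatinase *Mmp2* (0.92) and to the collagen *Col6a1* (0.90), and with the panel median these were 0.68, 0.50 and 0.65. *Arg1* was nearest to *Cdh2*, which encodes N-cadherin (0.86), to the collagen *Col3a1* (0.85) and to the growth factor *Tgfb1* (0.82), with 0.60, 0.52 and 0.29 against the panel median. *Nos2* was nearest to the row named *Ang2* (0.85), the stromal chemokine *Cxcl12* (0.82) and the collagen *Col6a2* (0.80), with 0.44, 0.29 and 0.32.

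The markers of 1 activation state were not nearest to each other. *Nos2* and *Ccr7* had a rho of 0.45, the lowest among the pairs of the 4 markers, and *Arg1* and *Mrc1* had 0.70, against medians over all genes of 0.59 to 0.70. With the panel median removed, *Nos2* and *Ccr7* had a rho of -0.01 and *Arg1* and *Mrc1* of 0.13. The pair *Ccr7* and *Arg1*, from opposite states, had the highest value among the 4 markers on that scale, 0.52. Medians over all genes on that scale ran from 0.13 for *Nos2* to 0.30 for *Ccr7*, with 0.15 for *Arg1*. By closeness, *Arg1* had rank 22 among the genes compared with *Ccr7*, and *Ccr7* had rank 4 among those compared with *Arg1*. These values are over mice of all groups, with no test.

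**Figure D5:**
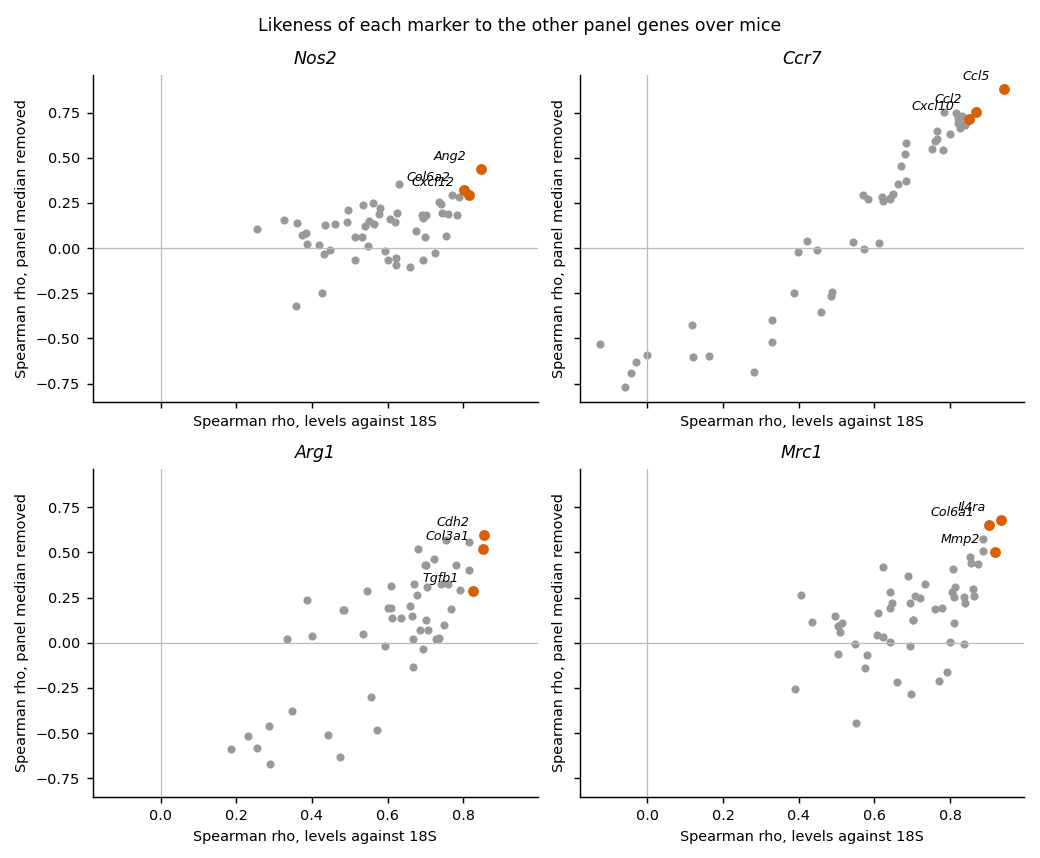
Spearman rho over mice between each marker and every other panel gene, with levels against 18S (x axis) and with the panel median removed (y axis), where grey points are genes and the orange points the 3 genes nearest to the marker against 18S. Ccr7 has a group of genes that stay high on both axes, led by Ccl5 at 0.94 and 0.88, while no gene lies above 0.44 on the y axis for Nos2, whose nearest gene against 18S has 0.85 on the x axis.

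Other genes of polarization and monocyte recruitment in the panel gave few calls between P+eMSC and P. Of the 5 classical activation genes measured out of 9 listed (*Il1b*, *Tnfa*, *Il6*, *Cxcl9* and *Cxcl10*), 1 was called at 6 weeks, where 18.5% of all genes were, and 0 at 1 week, where 0% were. The called gene was *Cxcl9*, which is induced by interferon and draws lymphocytes. Its mean level was -11.27 ± 2.31 (SD, n = 7) with the cells and -14.48 ± 1.92 (SD, n = 7) with the nanomesh alone. It was higher with the cells by a shift of 3.44 (95% interval 0.50 to 6.22, exact p = 0.0111) with an adjusted p of 0.158 over the 54 genes in the exact test, and against the panel median by 1.73 (exact p = 0.0379). The list's median shift was 0.89 at 6 weeks and -1.09 at 1 week, beside 1.15 and -0.07 for all genes. Of the 3 alternative activation genes measured out of 4 (*Il10*, *Il4ra* and *Tgfb1*), 0 were called at either time, with median shifts of 1.04 and -0.19. *Il4ra*, the nearest gene to *Mrc1*, shifted by 1.04 at 6 weeks (exact p = 0.232) and by -0.14 at 1 week.

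Of the 5 monocyte recruitment genes measured out of 6 (*Ccr1*, *Ccr2*, *Ccl2*, *Ccl7* and *Ccl12*), 0 were called at either time, with median shifts of 0.05 at 6 weeks and -1.21 at 1 week. *Ccl2*, close to *Ccr7* over mice, shifted by -0.48 at 6 weeks and by -1.99 at 1 week (exact p = 0.710 and 0.234). Against the panel median, 3 of these 5 genes were called lower in P+eMSC than in P at 1 week, where 9.26% of all genes were (5 of 54, all lower). They were *Ccl2* at -1.72 (exact p = 0.0221), *Ccl7* at -1.56 (exact p = 0.0513) and *Ccr1*, a chemokine receptor, at -0.996 (exact p = 0.0513), with adjusted p of 0.421 in the exact test. The alternative activation cytokine gene *Il10* was called lower there too, at -1.39 (exact p = 0.0411), whereas none of the 4 markers was called on this scale. At 6 weeks on this scale *Ccl2* was again called lower, at -1.34 (exact p = 0.0379), where 3.7% of all genes (2 of 54) were called. This scale was applied to the lists after other results of these data were seen. Between P and sham, 0 of the 13 listed genes were called against 18S at either time, where 25.9% of all genes were called at 6 weeks and 5.56% at 1 week, all lower. Against the panel median 4 were called higher in P at 6 weeks, *Il1b*, *Ccl2*, *Ccl7* and *Ccl12*, where 13% of all genes were called higher. Their exact p ran from 0.0140 to 0.0350, with adjusted p of 0.239 to 0.315 in the exact test. The panel median at 6 weeks was again that of the 23 genes still detected in mouse 52. At 1 week 4 were called higher, *Il1b*, *Tnfa*, *Ccl7* and *Ccl12*, where 7.41% of all genes were called higher and 9.26% in either direction. Their exact p ran from 0.0221 to 0.0513, the threshold itself for *Tnfa* and *Ccl7*, with adjusted p of 0.421 in the exact test. The shifts of the genes called at these 2 times ran from 1.10 to 3.41, and the genes are named after their values were seen.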

How the data were processed

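RNA from tissue of 41 NSG mice was turned into cDNA, preamplified and quantified by TaqMan chemistry in a Fluidigm microfluidic array. The authors deposited Ct values, a unit of PCR cycles, in which 999 marks no detection. They also deposited fold changes, a ratio made by the 2-ΔΔCt method against 18S and sham mice. For the 4 markers these were the sham mice of the same time, but for the 10 values given below. Fold changes of the other genes were not compared. Nos2, Ccr7, Arg1 and Mrc1 were matched by name, and all 4 symbols occur in RefSeq (GRCm38.p6). A level was 18S Ct minus gene Ct, and undetected values were left out. All 54 target genes were tested with the exact two-sided Mann-Whitney test, enumerated in Python 3.11.15 with numpy 2.4.6, and shifts are Hodges-Lehmann estimates with exact 95% intervals. Calls were at p of 0.0513 or below, and Benjamini-Hochberg adjustment ran over all genes or all 1431 gene pairs. Changes over time in the effect of the cells were fitted with limma 3.58.1 (R 4.3.3). Each mouse was 1 replicate. Both procedures were tested on simulated data. Alternatives were the panel median as reference, imputed undetected values, single mice left out, another test, the deposited fold changes, animal numbers and mouse 2356 at 1 week. Of the 160 deposited fold changes compared for the markers, 150 lay within 0.01 log2 units of those recomputed. The other 10, the 4 of mouse 2356 and *Ccr7* in the 6 sham mice at 6 weeks, did so against the 1 week sham mice. The genes named are the 4 markers, the 3 genes nearest to each, and the listed genes called between P+eMSC and P. The markers, lists and tests were chosen with earlier results of these data known. Ct values have no depth. Precision depends on how many mice a group holds and on their spread, which mouse 52 widened for *Mrc1* in P at 6 weeks.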

Additional observations from a re-analysis of the deposited data

Results flagged for a closer look

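Among 36 sets of values (4 markers and 2 differences between markers in 6 groups), 3 held a mouse far from the rest of its group, and chance gives about 1 in 20. *Arg1* in mouse 2210 of the P+eMSC group at 6 weeks was at -19.73, with the nearest of the other 6 mice at -12.71. *Arg1* minus *Nos2* in the same mouse was at -5.92, with the nearest at 0.18. This mouse had its *Nos2* at -13.81 and its panel median at -8.81, the lowest panel median of its group. *Mrc1* in the P mouse 52 at 6 weeks was at -16.70, with the nearest of the other 7 mice at -10.30, and its panel median was -16.94 beside a group median of -8.48.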

How the results depend on the processing

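No paired analysis was possible because each mouse received a single treatment and was taken at a single time, and animal numbers are not shared between groups. The reference moved the results most. When the panel median took the role of 18S, the shift between P+eMSC and P at 6 weeks turned to -0.24 for *Nos2*, -0.48 for *Ccr7*, -0.10 for *Arg1* and -0.10 for *Mrc1*, and at 1 week to -0.35 for *Nos2* and -0.17 for *Mrc1*. Between P and sham it turned to 0.40 for *Nos2*, 0.95 for *Ccr7* and 0.85 for *Arg1* at 6 weeks and to 0.20 for *Nos2* at 1 week. Between P+eMSC and sham it turned to -0.10 for *Nos2* at 6 weeks and to 0.074 for *Arg1* and 0.37 for *Mrc1* at 1 week. Over time it turned to -0.29 for *Mrc1* in P+eMSC and to -0.061 for *Nos2*, -0.70 for *Ccr7* and -0.029 for *Mrc1* in sham. None of these was called under either reference, and the cause was not tested.

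With undetected values set below the lowest, *Nos2* between P+eMSC and P at 1 week turned to -0.11, *Nos2* over time in P to -0.052 and *Ccr7* over time in P+eMSC to 0.0086. *Arg1* minus *Nos2* turned to -0.57 between P and sham at 6 weeks and to -0.086 between P+eMSC and sham at 1 week. A missing *Nos2* Ct bounds this difference only from below, so its sign is not decided by these fits. The difference of means between P+eMSC and P at 1 week was -0.083 for *Nos2* and -0.051 for *Mrc1*. With mouse 2356 at 1 week, *Mrc1* minus *Ccr7* between P+eMSC and P at 6 weeks was -0.083, as also without mouse 52. At 1 week *Nos2* was then -0.18 and *Mrc1* -0.11 between P+eMSC and P, and *Nos2* was 0.16 between P and sham. *Nos2* over time in P was -0.31. *Mrc1* between P and sham at 6 weeks was called (-1.61), so 1 of 4 markers was, in place of 0. *Arg1* minus *Nos2* over time in P lost its call (-1.29), which left 0 of 2 in place of 1. The moves of mouse 2356 against sham and over time, and the one without mouse 52, were chosen after seeing the data.

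With 1 mouse left out at a time, the shift between P+eMSC and P at 6 weeks ran from 1.75 to 3.11 for *Arg1*, 0.87 to 1.81 for *Mrc1* and -0.16 to 0.96 for *Mrc1* minus *Ccr7*, with 0 to 1 markers called. At 1 week it ran from -0.18 to 0.66 for *Nos2*, -1.35 to 0.58 for *Ccr7*, -0.36 to 0.74 for *Mrc1* and -0.38 to 0.22 for *Arg1* minus *Nos2*. Between P and sham at 6 weeks it ran from -0.41 to 0.85 for *Ccr7*, -1.61 to -1.07 for *Mrc1* and -1.03 to 0.70 for *Arg1* minus *Nos2*, with 0 to 1 markers called. At 1 week it ran from -0.83 to 0.31 for *Nos2*, -0.031 to 0.92 for *Arg1* and -0.45 to 0.57 for *Mrc1*. Between P+eMSC and sham at 6 weeks it ran from -0.11 to 1.24 for *Ccr7* and -0.49 to 0.40 for *Mrc1*. At 1 week it ran from -0.39 to 0.22 for *Nos2*, -1.69 to 0.43 for *Arg1*, -0.28 to 0.57 for *Mrc1* and -0.086 to 0.68 for *Arg1* minus *Nos2*. Over time it ran from -0.14 to 0.89 for *Nos2* and -1.96 to -1.20 for *Arg1* minus *Nos2* in P, with 0 to 1 differences called. In P+eMSC it ran from -1.51 to 0.0086 for *Ccr7* and 0.61 to 1.29 for *Nos2*, with 0 to 1 markers called. In sham it ran from -0.53 to 0.67 for *Ccr7* and 0.58 to 1.496 for *Mrc1* minus *Ccr7*, with 0 to 1 differences called.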
